A study of Anas platyrhynchos with 12 samples.

Results

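Breast muscle holds immune cells among its fibres, and 8 genes that mark them were described in ducks with a high or a low share of breast muscle. The 8 genes are PTPRC, LCP1, CD3E, CD4, CXCR5, CSF1R, CYBB and CD74, out of 16433 gene models in the table. They were taken by symbol: 7 carry it in the table itself (CXCR5 as gene ID 101798696), and CD4 has no symbol there and was found by its gene ID, 101790140, in a RefSeq gene table. The samples were breast muscle of ducks (Anas platyrhynchos) of an F2 population, all 42 days old and kept under the same conditions. The HB group is 6 samples labelled with a high breast muscle ratio, and the LB group is 6 labelled with a low one. No treatment, parental line, sex or batch is given in the labels, and nothing states that each sample is a separate bird. RNA sequencing read the whole tissue, so fewer cells of a type and less RNA per cell cannot be told apart. Leukocytes among the fibres and in the blood that the tissue held cannot be told apart either.

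Leukocytes share the tyrosine phosphatase CD45 and the actin-bundling protein L-plastin, and their subsets are told apart by surface receptors. T cells carry the CD3 complex, which passes on the signal of the antigen receptor, and helper T cells add the coreceptor CD4. Follicular B and T cells use CXCR5 to find lymphoid follicles, and macrophages depend on the receptor CSF1R for survival. Phagocytes make superoxide with an oxidase whose catalytic subunit is CYBB, and antigen-presenting cells hold MHC class II together with its invariant chain, CD74. In skeletal muscle, resident macrophages and T cells are best known for clearing and repairing damaged fibres.

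Libraries held 24090771 to 42503751 counts, and muscle genes were high in both groups: the actin ACTA1 averaged 38900 ± 10200 FPKM over HB, against 34900 ± 5180 FPKM over LB (SD, n = 6). FPKM, read fragments scaled to gene length and library size, were computed for each library from the deposited counts. Library HB-4 stood apart over all genes: its Pearson's r of log2 expression was 0.956 to 0.969 with the other libraries, where all other pairs had 0.976 to 0.990. The fast troponin TNNI2 had 6610 FPKM in HB-4 against 4580 to 5110 in the rest of HB. LB-5 was high in interferon genes, and the antiviral gene RSAD2 had 34.5 FPKM in LB-5 against 0.766 to 6.90 in the other LB libraries. The numbers in these library names come from the column names and pair nothing.

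None of the 8 markers differed between HB and LB beyond the spread between libraries after correction. In edgeR's quasi-likelihood test, 0 of 8 had an adjusted p under 0.05, where the background over 12577 genes tested was 0% (0 genes). DESeq2 called 1 gene, and it was not among the 8. At an unadjusted p under 0.05 the count was 1 of 8, CXCR5, against 4.6% of all genes tested, and 2.34% of all genes were past it with higher values in HB. The groups overlapped for each of the 8 genes, as they did for all but 0.0954% of the genes tested. The median log2 difference, HB minus LB, was 0.041 over the 8 genes and -0.00025 over all genes tested.

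The markers spanned a wide range of levels, from CD74 at 345 FPKM to CXCR5 at 0.102 FPKM (means over 12 libraries). LCP1 followed CD74 at 43.0 FPKM, CSF1R had 15.1 and PTPRC 3.14 FPKM, and each of these lay above the next in 12 of 12 libraries. PTPRC lay above CD3E, at 1.61 FPKM, in 11 of 12 libraries. CD3E and CYBB, at 1.53 FPKM, did not separate, since CD3E was higher in 7 of 12. CYBB lay above CD4, at 0.824 FPKM, in 10 of 12, and CD4 lay above CXCR5 in all 12. CD74 thus stood higher than 98.5% of the genes tested and CXCR5 higher than 1.47% of them.

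**Figure D1:**
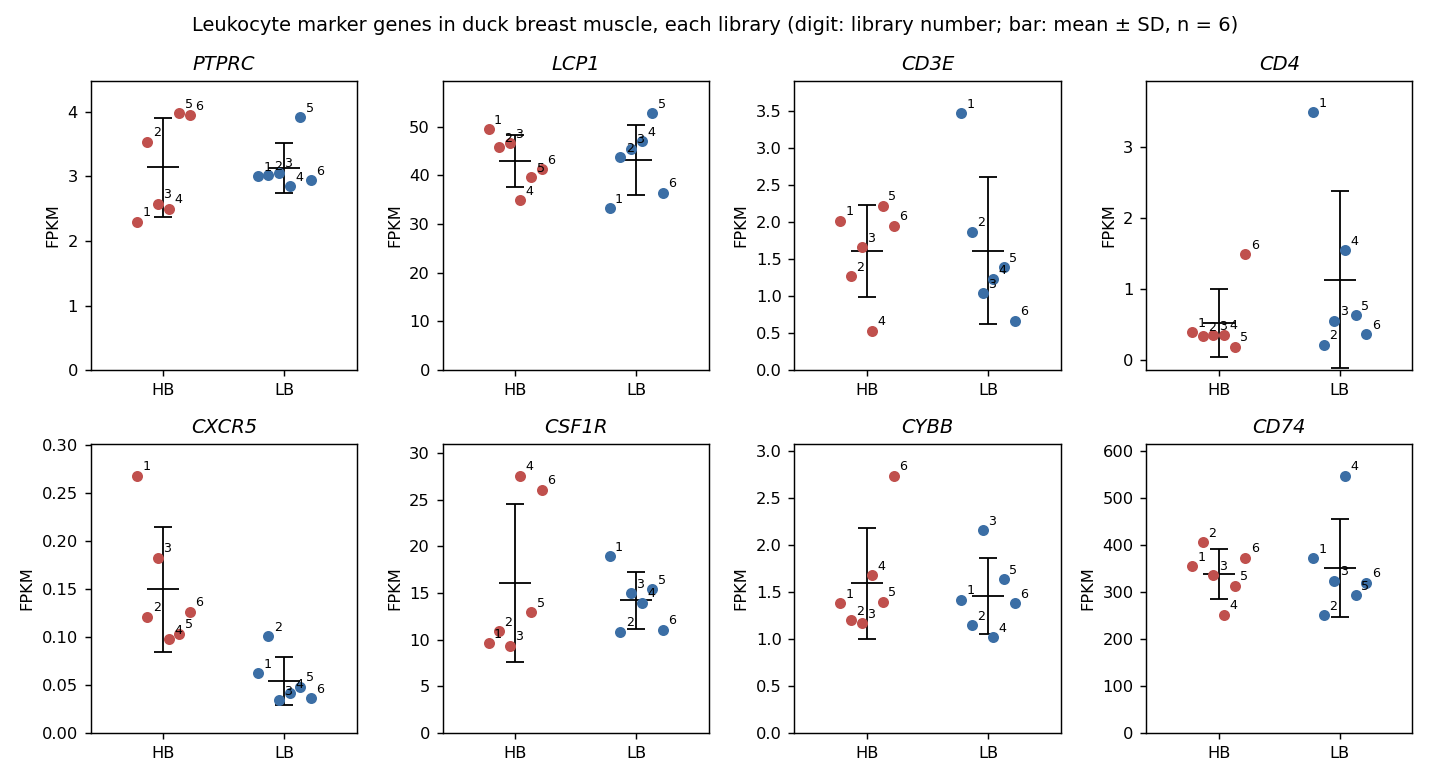
FPKM (vertical axes, linear) of the 8 leukocyte markers in each HB and LB library; the digit beside a point is the library number and the bar is the mean ± SD (n = 6). The groups overlap in each panel, and CXCR5 shows 5 HB libraries above the highest LB library. CD4 is highest in LB-1, and CSF1R is high in HB-4 and HB-6.

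PTPRC, which encodes CD45, was the steadiest of the low markers. It had 2.30, 3.06 and 3.98 FPKM over HB, against 2.85, 3.01 and 3.92 FPKM over LB (lowest, median, highest). HB libraries lay on both sides of the LB libraries, with 2 above the highest and 3 below the lowest of them. The means were 3.14 ± 0.77 FPKM over HB, against 3.13 ± 0.392 FPKM over LB (SD, n = 6), with a log2 difference of 0.047 (95% interval -0.30 to 0.40, edgeR adjusted p 0.991). A difference of 1 on the log2 scale in either direction lay outside that interval.

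LCP1, L-plastin, had 34.9, 43.5 and 49.5 FPKM over HB, against 33.2, 44.6 and 52.8 FPKM over LB (lowest, median, highest). The groups covered nearly the same range, with a log2 difference of 0.034 (95% interval -0.22 to 0.29, edgeR adjusted p 0.991). LCP1 also varied least of the 8 across libraries, 1.59-fold between its lowest and highest. Its level per length exceeded that of PTPRC by 9.95-fold in HB-5 to 21.5-fold in HB-1, so the ratio of these pan-leukocyte markers was not constant.

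Other genes shared by most leukocytes gave 0 calls in either direction among 23 tested. Of these, 8 had positive and 15 negative log2 differences (median -0.062), beside 6277 positive and 6300 negative over all genes tested. LAPTM5, a lysosomal membrane protein of blood cells, had the smallest p of the list, with 44.1 ± 6.57 FPKM over HB, against 54.8 ± 10.7 FPKM over LB (log2 difference -0.28 ± 0.14 (SE), edgeR p 0.0611, adjusted p 0.977). The integrin subunit ITGA4, which guides leukocytes into tissue, had 3.12 ± 1.29 FPKM over HB, against 4.79 ± 2.28 FPKM over LB, and LB-6 alone held 9.26 FPKM. HCLS1, an actin regulator of blood cells, had 4.63 ± 1.20 FPKM over HB, against 5.89 ± 1.11 FPKM over LB. ARHGDIB, an inhibitor of small GTPases in leukocytes, had 49.4 ± 6.72 FPKM over HB, against 53.8 ± 6.29 FPKM over LB. PTPN6, among the 8 genes with a positive log2 difference, had 7.43 ± 1.21 FPKM over HB, against 6.74 ± 1.29 FPKM over LB. Summed over the list, HB libraries held 156 to 208 FPKM and LB libraries 183 to 231 FPKM, with HB-4 lowest and LB-3 highest. A large part of this sum is LAPTM5, at 49.4 FPKM over the 12 libraries, and ARHGDIB, at 51.6 FPKM, so it does not measure leukocyte content.

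CD3E, the epsilon chain of the T cell receptor complex, had the same mean in both groups. It had 0.533, 1.81 and 2.22 FPKM over HB, against 0.670, 1.31 and 3.47 FPKM over LB (lowest, median, highest). The lowest value lay in HB-4 and the highest in LB-1. The means were 1.61 ± 0.622 FPKM over HB, against 1.61 ± 0.991 FPKM over LB, and the 95% interval of the log2 difference ran from -0.90 to 0.91 (edgeR adjusted p 1.00). Without LB-1 the log2 difference was 0.45 and without LB-6 it was -0.17, so its sign was set by single libraries.

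CD4 was the most uneven marker, with a 19.0-fold range over the 12 libraries. It had 0.184, 0.347 and 1.49 FPKM over HB, against 0.209, 0.587 and 3.50 FPKM over LB (lowest, median, highest). A few libraries stood out: HB-6 had 81 counts, LB-1 had 162 and LB-4 had 54, where the other 9 had 9 to 33. The means were 0.516 ± 0.483 FPKM over HB, against 1.13 ± 1.25 FPKM over LB, with a log2 difference of -1.19 ± 0.72 (SE; 95% interval -2.74 to 0.36; edgeR p 0.121, adjusted p 0.977). Without LB-1 the log2 difference shrank to -0.32, and without HB-6 it was -1.85. Exact Poisson 95% intervals were 4.12 to 17.1 counts for HB-5, the library with the fewest CD4 counts, and 138 to 189 for LB-1, the one with the most.

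The proportion of CD4 to CD3E changed from library to library. The ratio of their FPKM ran from 0.0828 in HB-5 to 1.26 in LB-4, a 15.2-fold range, and averaged 0.362 ± 0.280 in HB and 0.649 ± 0.415 in LB (SD, n = 6). LB-1 held the highest level of both genes and had a ratio of 1.01, while LB-2, with the second highest CD3E of the LB group, had 0.112. These low ratios rest on few CD4 counts. HB-5 had 9 (exact Poisson 95% interval 4.12 to 17.1) and LB-2 had 12 (6.2 to 21.0).

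Of 22 other T cell genes tested, 5 had positive and 17 negative log2 differences (median -0.14), and 0 were called in either direction. Without LB-1 the median was 0.039. LEF1, a transcription factor of T cells that other cell types also use in Wnt signalling, had the smallest p among them, at 0.616 ± 0.439 FPKM over HB, against 2.37 ± 2.51 FPKM over LB (log2 difference -2.0 ± 0.67 (SE), edgeR p 0.011, adjusted p 0.977). TCF7, its relative in T cells, had 0.761 ± 0.544 FPKM over HB, against 1.52 ± 1.36 FPKM over LB. Both were highest in LB-1, at 7.08 and 4.10 FPKM, and next in LB-4, at 3.34 and 1.98 FPKM, the libraries that also led CD4. In HB-6, the third library by CD4, LEF1 had 1.31 FPKM, less than the 1.43 FPKM of LB-5, and TCF7 had 1.59 FPKM. Without LB-1 their log2 differences were -1.18 and -0.36.

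CD6, a T cell adhesion receptor, had 0.229 ± 0.140 FPKM over HB, against 0.382 ± 0.162 FPKM over LB. CD3D, the delta chain of the CD3 complex, had 4.76 ± 1.31 FPKM over HB, against 4.94 ± 1.84 FPKM over LB, with its lowest value, 2.29 FPKM, in HB-4 and its highest, 8.24 FPKM, in LB-1, as CD3E had. CD44, an adhesion receptor that many cell types carry, had 5.94 ± 3.24 FPKM over HB, against 5.81 ± 1.58 FPKM over LB, and HB-4 held 12.02 FPKM. The summed T cell list was 21.4 to 31.7 FPKM over HB, against 17.7 to 49.6 FPKM over LB, highest in LB-1. It includes CD44, at 5.87 FPKM over the 12 libraries, and LEF1, at 1.49 FPKM, so it does not measure T cells alone.

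CXCR5, the homing receptor of follicular lymphocytes, had the largest log2 difference of the 8 markers and the fewest reads. It had 0.0976, 0.124 and 0.268 FPKM over HB, against 0.0342, 0.0449 and 0.101 FPKM over LB (lowest, median, highest). In reads, HB libraries held 38, 16, 31, 13, 14 and 19 counts (HB-1 to HB-6) and LB libraries held 8, 16, 5, 4, 7 and 5 (LB-1 to LB-6). All HB libraries but 1 lay above the highest LB library, LB-2, and all LB libraries but LB-2 lay below the lowest HB library. The log2 difference was 1.49 ± 0.39 (SE; 95% interval 0.66 to 2.33), with an edgeR p of 0.0019, the tenth smallest of the 12577 tested, and an adjusted p of 0.977. It did not pass the threshold. The markers were chosen with earlier results of these data known, so the rank and the unadjusted p-values of CXCR5 are a description. Leaving out single libraries moved it from 1.25 without HB-1 to 1.75 without LB-2, with an unadjusted p of at most 0.00658. At these depths counting error is wide: the exact Poisson 95% interval was 26.9 to 52.2 counts for HB-1 and 1.09 to 10.2 counts for LB-4.

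Of 13 B cell genes tested, 5 had positive and 8 negative log2 differences (median -0.048), and 0 were called. PAX5 and TNFRSF13C, B cell genes of the list, were among those under the filter on low counts. CD79B, a chain of the B cell receptor, had 0.623 ± 0.387 FPKM over HB, against 0.378 ± 0.227 FPKM over LB (log2 difference 0.77 ± 0.53 (SE), edgeR adjusted p 0.977). TNFRSF13B, a receptor for B cell survival factors, had a log2 difference of 1.48 with all libraries and of -0.092 without HB-4, which held 7.81 FPKM where the rest of HB held 0.332 to 1.19. BLNK, an adaptor of the B cell receptor, had 1.83 ± 0.516 FPKM over HB, against 2.36 ± 0.769 FPKM over LB. BCL6 and CD40, which other cell types also express, had 33.3 ± 11.1 and 20.1 ± 2.91 FPKM over HB, against 40.0 ± 12.1 and 21.9 ± 3.82 FPKM over LB. The correlation of CXCR5 with these 13 genes over 12 libraries had a median of -0.05. It exceeded 0.5 for 0 of 13, where 5.05% of all genes tested did. At that share a count of 0 among 13 genes does not set the list apart.

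CSF1R, the macrophage growth factor receptor, was high in a pair of HB libraries. It had 9.37, 11.9 and 27.6 FPKM over HB, against 10.9, 14.5 and 19.0 FPKM over LB (lowest, median, highest). HB-4 held 27.56 and HB-6 held 26.09 FPKM, and the other 4 HB libraries lay between 9.37 and 12.94 FPKM, under the LB mean. The means were 16.1 ± 8.43 FPKM over HB, against 14.2 ± 3.02 FPKM over LB, with a log2 difference of 0.20 ± 0.30 (SE; 95% interval -0.45 to 0.86; edgeR adjusted p 0.985). Without HB-4 the difference was -0.033 and without HB-6 it was 0.034.

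CYBB, the catalytic subunit of the phagocyte oxidase, had 1.17, 1.39 and 2.74 FPKM over HB, against 1.02, 1.40 and 2.16 FPKM over LB (lowest, median, highest). HB-6 held the highest value, and the medians were close. The log2 difference was 0.16 ± 0.24 (SE; 95% interval -0.36 to 0.68; edgeR adjusted p 0.985), and without HB-6 it was -0.042. The oxidase needs cytosolic partners, and of 7 related genes tested 2 had positive and 5 negative log2 differences (median -0.062), and 0 were called. NCF4, one of the cytosolic subunits, had 0.448 ± 0.297 FPKM over HB, against 0.542 ± 0.135 FPKM over LB, with 1.03 FPKM in HB-6. RAP1A and RAC1, GTPases that nearly all cells express, had 57.0 ± 11.5 and 86.7 ± 12.6 FPKM over HB, against 69.3 ± 3.77 and 95.5 ± 8.21 FPKM over LB (edgeR p 0.0471 and 0.348, adjusted p 0.977 for both).

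Of 29 other macrophage genes tested, 12 had positive and 17 negative log2 differences (median -0.032, or 0.038 without HB-3 and 0.021 without LB-5), and 0 were called. TIMD4, a receptor by which resident macrophages bind dying cells, had 0.366 ± 0.392 FPKM over HB, against 0.845 ± 0.560 FPKM over LB. HB-4, the library with the most CSF1R, had 0 counts of TIMD4, which allows up to 3 counts (one-sided 95% Poisson bound). MERTK, another receptor for dying cells, had 3.56 ± 2.05 FPKM over HB, against 2.66 ± 0.697 FPKM over LB, and CD83, a surface protein of activated antigen-presenting cells, had 2.46 ± 1.52 FPKM over HB, against 1.82 ± 0.761 FPKM over LB. Both were highest in HB-4, at 7.65 and 5.53 FPKM, and without it their log2 differences were 0.074 and 0.061, against 0.47 and 0.49 with it. The lysosomal proteases CTSB and LGMN, which other cells also make, had 149 ± 32.4 and 71.2 ± 5.59 FPKM over HB, against 145 ± 20.9 and 75.0 ± 6.13 FPKM over LB. The summed macrophage list was 354 to 534 FPKM over HB, against 383 to 510 FPKM over LB, highest in HB-6. This sum includes CTSB, at 147 FPKM over the 12 libraries, and LGMN, at 73.1 FPKM, so it does not measure macrophages alone.

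CD74, the invariant chain that guards the MHC class II groove until antigen is loaded, had 252, 346 and 406 FPKM over HB, against 251, 322 and 547 FPKM over LB (lowest, median, highest). The groups shared their lower end, and LB-4 alone lay far above, with 547 FPKM where the next LB library held 372. The means were 339 ± 53.3 FPKM over HB, against 351 ± 104 FPKM over LB, with a log2 difference of -0.032 (95% interval -0.46 to 0.39, edgeR adjusted p 0.993). Without LB-4 it was 0.16. CD74 exceeded PTPRC per length by 74.9-fold in LB-5 to 192-fold in LB-4.

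Genes that control or accompany MHC class II gave 0 calls among 13 tested, with 5 positive and 8 negative log2 differences (median -0.034, or 0.011 without LB-3). RFX5, a subunit of the factor that binds class II promoters, had 7.64 ± 1.52 FPKM over HB, against 9.70 ± 0.991 FPKM over LB (log2 difference -0.30 ± 0.14 (SE), edgeR p 0.0464, adjusted p 0.977). NFYA and CREB1, general factors that act at the same promoters, had 9.24 ± 0.908 and 4.45 ± 0.787 FPKM over HB, against 10.7 ± 1.17 and 5.39 ± 0.973 FPKM over LB. CIITA, among the 5 genes with a positive log2 difference, had 0.438 ± 0.0925 FPKM over HB, against 0.379 ± 0.104 FPKM over LB (log2 difference 0.26, edgeR p 0.253). The lysosomal protease CTSL had 67.2 ± 28.3 FPKM over HB, against 65.0 ± 3.72 FPKM over LB. The correlation of CD74 with these 13 genes over 12 libraries had a median of 0.14. It exceeded 0.5 for 0 of 13, where 4.58% of all genes tested did, so that count does not set these genes apart. The only class II chain among them was HLA-DRB1, at a mean of 1.06 FPKM. Whether CD74 varied with the other class II chains was therefore not tested.

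A list of 4 secreted factors held CSF1, IL34, IL16 and CXCL12, and 0 of 4 were called (median log2 difference -0.24). CSF1, a ligand of CSF1R, had 9.41 ± 3.50 FPKM over HB, against 7.46 ± 2.65 FPKM over LB, with its highest value, 16.0 FPKM, in HB-4, one of the libraries high in CSF1R. IL16, a cytokine that binds CD4, had 0.852 ± 0.224 FPKM over HB, against 1.04 ± 0.304 FPKM over LB. CXCL12, a chemokine whose receptor CXCR4 is not among the 8 markers, had 34.6 ± 5.82 FPKM over HB, against 43.7 ± 12.9 FPKM over LB.

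**Figure D2:**
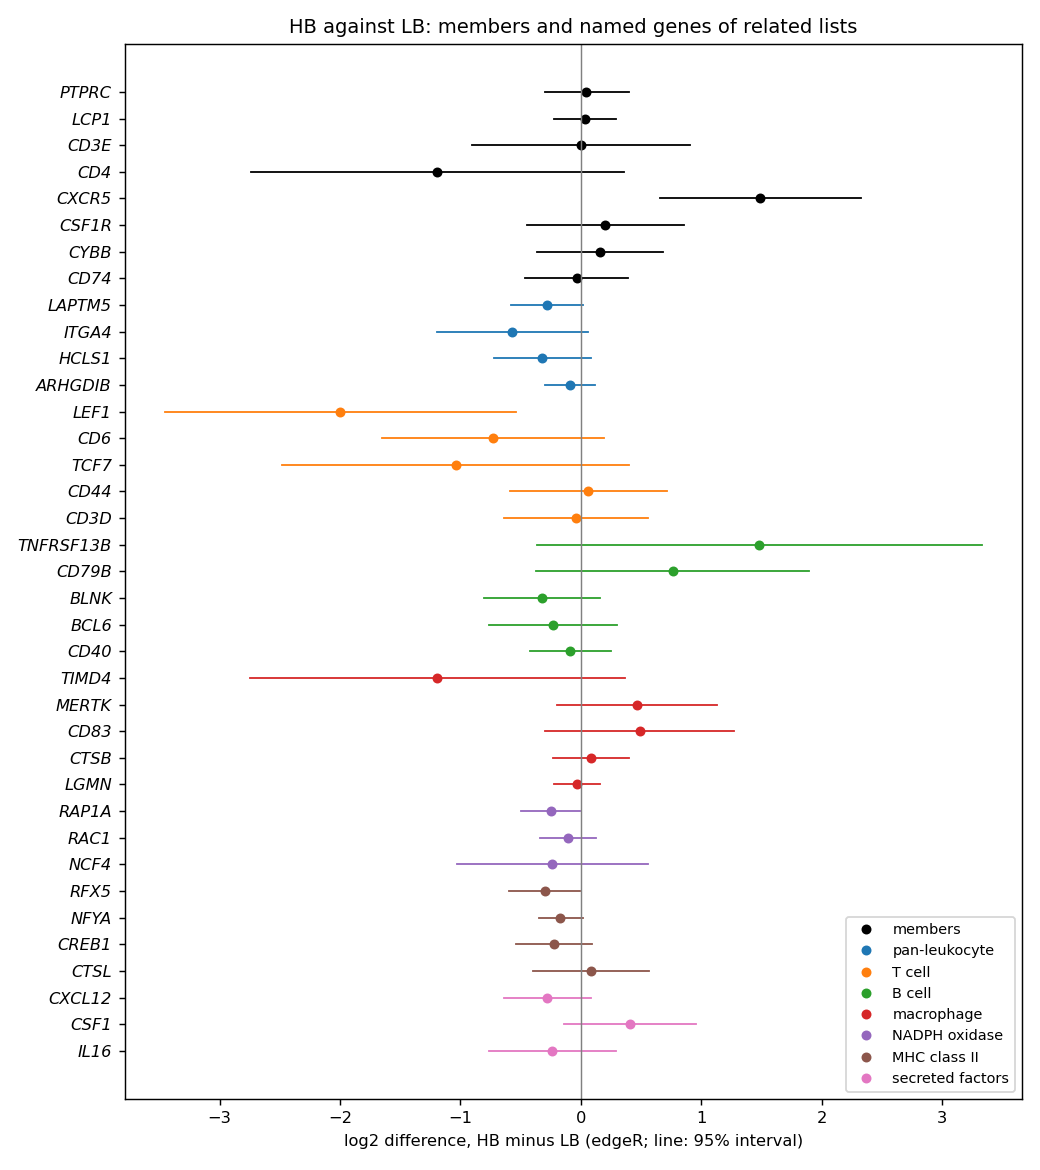
Log2 difference, HB minus LB, from edgeR (horizontal axis) for the 8 markers and the named genes of related lists, with 95% intervals as lines and list membership by colour. The intervals of CXCR5, at 1.49, and LEF1, at -2.0, are among the few that do not reach 0, and neither gene passed the adjusted threshold.

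No pair of the 8 markers was correlated across libraries at an adjusted p under 0.05 (0 of 28 pairs). Over the 28 pairs, Pearson's r of log2 CPM (counts scaled to library size) had a median of 0.18 and ran from -0.34 (CSF1R and LCP1) to 0.71 (CSF1R and CYBB). It exceeded 0.5 for 3 pairs and was below 0 for 10. These libraries share one tissue and differ in depth, and the permutation tests used 100000 resamples.

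The pair CSF1R and CYBB was the closest, with r = 0.71 (two-sided permutation p 0.00912) and Spearman's rank correlation = 0.73 (permutation p 0.00975), adjusted p 0.255 and 0.273 over the 28 pairs. It was 0.84 within HB and 0.51 within LB, and 0.54 without HB-4 and HB-6. CD4 and CD74 had r = 0.62 (permutation p 0.0336) and a rank correlation of 0.55 (permutation p 0.0658), adjusted p 0.470 and 0.614. This relation was 0.16 within HB and 0.80 within LB, and it fell to 0.32 without LB-1 and LB-4, so it rests on those libraries. The T cell genes CD3E and CD4 had r = 0.39 (permutation p 0.206) and a rank correlation of 0.16 (permutation p 0.619), adjusted p 0.723 and 0.869, and r was 0.00 without LB-1 and LB-4.

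**Figure D3:**
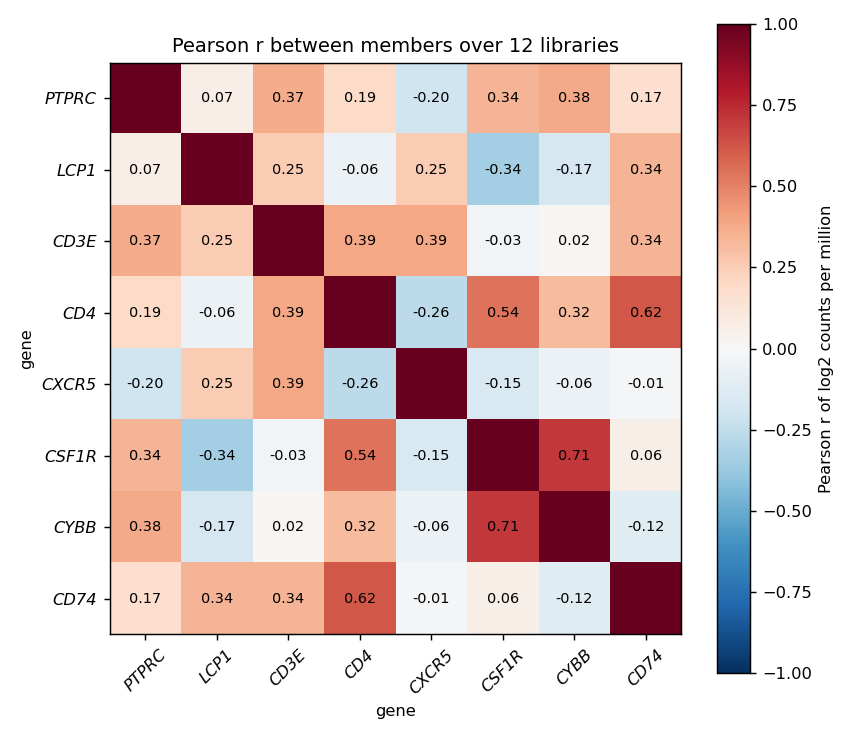
Pearson's r of log2 CPM (counts scaled to library size) between each pair of the 8 markers over 12 libraries, with the value printed in each cell and shown by colour. CSF1R with CYBB (0.71), CD4 with CD74 (0.62) and CD4 with CSF1R (0.54) are the pairs above 0.5.

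Each marker was also set against the wider lists. CD3E exceeded r = 0.5 with 17 of 22 T cell genes (77.3%), where 8.92% of all genes tested did, and with 6 of 29 macrophage genes. CD4 did so with 12 of 22 T cell genes (54.5%), where 7.67% of all genes did. This was not particular to T cell genes. CD4 also did so with 4 of 7 genes related to the phagocyte oxidase (57.1%), 8 of 23 pan-leukocyte genes (34.8%) and 6 of 29 macrophage genes (20.7%). CSF1R did so with 14 of 29 macrophage genes (48.3%), where 14.0% of all genes did. CSF1R also did so with 11 of 21 skeletal muscle genes and 9 of 23 pan-leukocyte genes (39.1%). CYBB did so with 10 of 29 macrophage genes (34.5%), where 4.73% of all genes did. For CYBB too this was not particular to macrophage genes. The shares were 3 of 7 genes related to the oxidase (42.9%), 4 of 13 MHC class II list genes (30.8%) and 6 of 23 pan-leukocyte genes (26.1%). PTPRC did so with 10 of 29 macrophage genes (34.5%) and 3 of 23 pan-leukocyte genes, where 4.94% of all genes did. CD74 did so with 9 of 22 T cell genes (40.9%) and 1 of 29 macrophage genes, where 4.58% of all genes did. It did so with 0 of 13 genes that control or accompany MHC class II, among which HLA-DRB1 is the only class II chain. LCP1 did so with 2 of 23 pan-leukocyte genes (8.70%), where 6.26% of all genes did, and CXCR5 with 0 of 22 T cell genes and 0 of 23 pan-leukocyte genes, where 5.05% of all genes did. With such low shares over all genes, the counts of 0 for CD74 and CXCR5 do not set those lists apart. These shares describe 12 libraries, carry no test and were not computed with libraries left out. Those of CSF1R include HB-4 and HB-6, its highest libraries, and HB-4 stood apart over all genes.

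Among the 9945 named genes averaging 1 FPKM or more, the patterns most like each marker were picked by Pearson's r over the 12 libraries. CSF1R was most like ALOX5 (0.98), TCIM (0.96) and CTNNAL1 (0.93). CD3E was most like TRAF3IP3 (0.90), CD247 (0.90) and ANAPC7 (0.89), and CD4 was most like GLUL (0.92), GSDMA (0.90) and an assembled model named ZDHHC20 (0.90). For PTPRC, ARHGAP21 (0.86) and GNL2 (0.84) were among the most alike. CYBB was most like SPPL2B (0.93), KLRB1C (0.91) and DNASE2B (0.87). CD74 was most like TGOLN2 (0.87), STEEP1 (0.87) and SLC35E4 (0.86), LCP1 like SUSD3 (0.87), CYP46A1 (0.86) and PCMT1 (0.86), and CXCR5 like SCAMP2 (0.88), TMEM11 (0.88) and ZC3H11B (0.85). As the best of 9945, these values are a description.

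**Figure D4:**
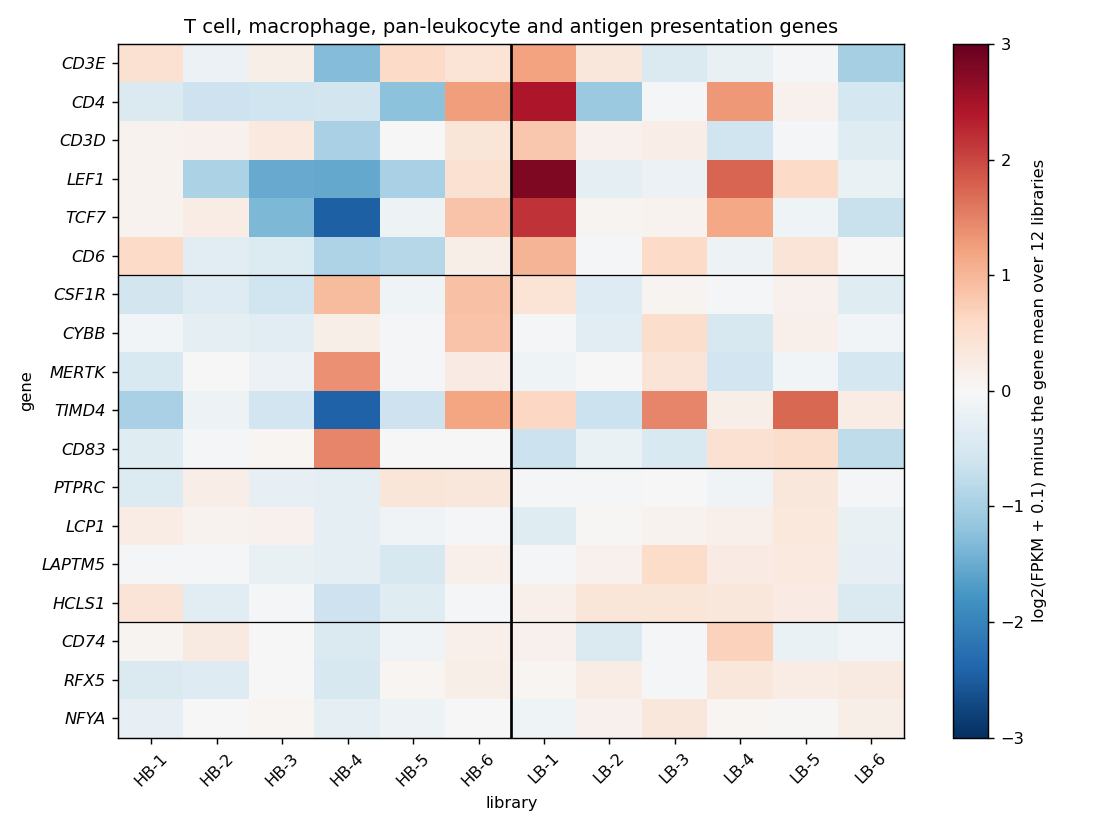
Heat map of log2(FPKM + 0.1) minus each gene's mean over the 12 libraries (colour), with genes in rows (from the top, T cell, macrophage, pan-leukocyte and antigen presentation genes) and HB libraries left of LB libraries. CD4, LEF1 and TCF7 are highest in LB-1, CSF1R in HB-4 and HB-6, and PTPRC and LCP1 vary little.

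Genes of other tissues and responses were measured beside the markers. Skeletal muscle genes had 18 positive and 3 negative log2 differences among 21 tested, with a median of 0.13 (0.051 without HB-4, and 0.020 without HB-4 and LB-5) and 0 calls, and summed to 77000 to 110000 FPKM over HB, against 64500 to 87500 FPKM over LB. Interferon response genes had negative differences in 23 of 23 tested, with a median of -0.73 and 0 calls. Without LB-5 the median was -0.18. With all 12 libraries, an unadjusted edgeR p under 0.05 was reached by 9 of the 23, against 4.6% of all genes tested. Without LB-5 that p was 0.137 for RSAD2, 0.153 for IFI35 and 0.159 for USP18. For ADAR it was at most 0.0229 with any single library left out. The interferon list summed to 173 to 278 FPKM over HB, against 187 to 775 FPKM over LB, highest in LB-5. PTPRC and LCP1 were also highest of their LB group in LB-5, at 3.92 and 52.8 FPKM, where the rest of LB held 2.85 to 3.06 FPKM of PTPRC. The part of muscle content and of interferon response in the marker values was not tested.

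In the RefSeq gene order, CSF1R and CD74 lie on the same chromosome with 6 coding genes between them, and their r was 0.06. CD3E and CXCR5 share another chromosome with 47 coding genes between them, and their r was 0.39. CD3E lies beside CD3D, CD4 beside LAG3, CSF1R beside PDGFRB, and CXCR5 between DDX6 and BCL9L. None of the 8 genes overlaps another coding gene in that table. The authors' deposited table gives CXCR5 a p-value of 0.00113 and an adjusted value of 0.530, with mean FPKM of 0.150 in HB and 0.0533 in LB. It gives each of the other 7 an adjusted value of 1.00.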

How the data were processed

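Breast muscle RNA of 6 HB and 6 LB samples was sequenced. Per the submitters' processing notes, the tools were HISAT2, DESeq2, StringTie 1.3.1 and fastp 0.18.0. The build, annotation, counting step and strand setting were not given in the sources used here. Raw counts for 16433 gene models were deposited for 12 libraries, between 24090771 and 42503751 per library. The authors also deposited group mean FPKM, the log2 ratio of those means, and a p-value with its adjusted value. The table holds 12 further columns, 1 per library, which were not used. Columns name a group and a number but no sample.

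FPKM per library were computed from counts, library totals and the length of each gene implied by the deposited mean FPKM. Lengths from both groups differed by at most 0.463% over 10188 genes. Genes were tested with edgeR 4.0.16 in R 4.3.3 (TMM scaling, filterByExpr, quasi-likelihood, Benjamini-Hochberg at 0.05 over 12577 genes). Each SE is the absolute log2 difference over the square root of F, and the 95% interval uses the same spread. The common biological coefficient of variation was 33.1%. Intervals for counts are exact two-sided Poisson and, like the one-sided bound of 3 counts for a count of 0, cover counting error alone. As no label states separate birds, p-values reflect spread among these samples, which may be technical.

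List genes were matched by RefSeq symbol through the gene ID (the IASCAAS Pekin duck assembly, 14057 of 15747 IDs matched), or else by a table symbol carried by 1 model. Symbols shared by several models, such as CD163, CSF2RA, MIF and GZMA, were left out because reads may be split between them. Named genes are the 8 members, up to 3 per list by smallest p and 2 by highest mean, and 3 per member by likeness (log2 CPM with a prior count of 2). A few genes that the rule names are not reported here. The members and lists were chosen with earlier results of these data known. Smallest chi-square per degree of freedom within a group was 66.8, and 0 pairs of libraries were identical. Alternatives covered DESeq2 1.42.0, limma 3.58.1 on log2(FPKM + 1) and log2(FPKM + 0.1), further scalings and low-count filters, and each library left out. A pair of further alternatives, chosen after seeing the data, left out 2 libraries each.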

Additional observations from a re-analysis of the deposited data

Results flagged for a closer look

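Within each group of 6 libraries, 1 library stood far from the others in 17 of 112 groups looked at. The rule was Dixon's Q, the gap to the nearest value over the range, above 0.625. Its nominal rate of 1 in 20 assumes normal and independent values. Here it was applied to untransformed FPKM of genes from the same libraries, so that rate is no benchmark. Of the 16 groups of the 8 markers, 3 were among the 17. CD4 was highest in HB-6 at 1.49 FPKM, against 0.184 to 0.390 in the other HB libraries. CYBB was highest in HB-6 at 2.74 FPKM, against 1.17 to 1.68 in the other HB libraries. PTPRC was highest in LB-5 at 3.92 FPKM, against 2.85 to 3.06 in the other LB libraries.

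HB-6 was also far above the other HB libraries for NCF4 (1.03 FPKM) and TIMD4 (1.12 FPKM). HB-4 was far above them for CD83 (5.53 FPKM), MERTK (7.65 FPKM), TNFRSF13B (7.81 FPKM) and TNNI2 (6610 FPKM), and far below them for ITGA2B (0.614 FPKM). HB-5 was far above them for ACTA1 (58200 FPKM). LB-5 was far above the other LB libraries for the interferon genes RSAD2 (34.5 FPKM) and USP18 (18.9 FPKM). LB-6 was far above them for ITGA4 (9.26 FPKM) and TNFRSF13B (1.96 FPKM) and far below them for HCLS1 (3.76 FPKM). LB-1 was far below them for EPB41 (13.4 FPKM).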

How the results depend on the processing

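Under 21 alternatives 0 of the 8 markers was called. DESeq2 called 1 gene of all tested, against 0 in edgeR, and the other alternatives called 0. CD4 stayed negative and CXCR5 positive in the 20 alternatives that tested them; both fell under the filter of a mean of 1 FPKM. CXCR5 lay between 0.13 (log2(FPKM + 1) scale) and 1.75. Sign changed in 26 of 166 tries over the 8 markers, all in the other 6, whose log2 differences lay near 0. With library totals as the scaling CD3E was -0.0023 and LCP1 -0.0060, and among genes averaging 1 FPKM or more CD3E was -0.0054. PTPRC was -0.012 and -0.022 in limma with pseudocounts of 1 and 0.1. Without HB-4 and LB-5 PTPRC was 0.17, LCP1 0.14 and CSF1R -0.020, and without HB-6 and LB-1 CD74 was 0.0006 and CYBB -0.018. Leaving out single libraries gave -0.059 to 0.13 for PTPRC, -0.17 to 0.45 for CD3E, -0.033 to 0.35 for CSF1R, -0.12 to 0.16 for CD74, -0.025 to 0.090 for LCP1 and -0.042 to 0.31 for CYBB. No list gene was called in 231 tries over the lists, and 5 of the 231 list medians changed sign (T cell, MHC class II, erythrocyte and macrophage lists, each with 1 library left out). The interferon median, -0.73 with all libraries, was -0.18 without LB-5 and -0.14 without HB-4 and LB-5. The cause of these changes was not tested. No paired analysis was possible because the library numbers come from column names and tie no HB sample to an LB sample. CXCR5, with 4 to 38 counts per library, is the marker most limited by depth.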

Other observations

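Genes listed as markers of heterophils, thrombocytes and mast cells gave 0 calls among 10 tested, with 2 positive and 8 negative log2 differences (median -0.17, or -0.082 without HB-4). Their sum was 12.3 to 32.4 FPKM over HB, against 26.4 to 37.2 FPKM over LB, lowest in HB-4 and highest in LB-2. KIT, part of this sum, had 1.34 FPKM in HB-4 against a mean of 9.39 FPKM over the 12 libraries. ITGA2B, an integrin of thrombocytes, had 1.79 ± 0.608 FPKM over HB, against 2.52 ± 0.541 FPKM over LB. CSF3R, a receptor of the granulocyte lineage, had 1.79 ± 0.683 FPKM over HB, against 2.37 ± 0.814 FPKM over LB. KIT and GATA2, which other cell types also express, had 9.03 ± 4.79 and 7.09 ± 1.75 FPKM over HB, against 9.75 ± 2.36 and 8.34 ± 1.51 FPKM over LB.

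Red cells of birds keep their nucleus, and their genes were measured in the same libraries. The alpha globin HBAA had 3940 ± 1590 FPKM over HB, against 3600 ± 665 FPKM over LB, and HBAD had 774 ± 262 FPKM over HB, against 806 ± 219 FPKM over LB. Of 12 erythrocyte genes tested, 8 lay above 0 and 4 below it in log2 difference (median 0.081, or -0.034 without HB-1), and 0 were called. HEMGN, a nuclear protein of blood precursors, had 0.218 ± 0.171 FPKM over HB, against 0.483 ± 0.187 FPKM over LB (log2 difference -1.09 ± 0.48 (SE), edgeR p 0.0401, adjusted p 0.977). EPB41, a membrane skeleton protein that muscle also expresses, had 19.6 ± 1.65 FPKM over HB, against 17.5 ± 2.13 FPKM over LB (log2 difference 0.21 ± 0.09 (SE), edgeR p 0.0386, adjusted p 0.977). HBE, an embryonic globin, had 0.750 ± 0.335 FPKM over HB, against 0.400 ± 0.179 FPKM over LB (log2 difference 0.92 ± 0.44 (SE), edgeR p 0.0567, adjusted p 0.977). CXCR5 exceeded r = 0.5 with 5 of 12 erythrocyte genes (41.7%), where 5.05% of all genes tested did, and with 0 of 13 B cell genes. At a share of 5.05%, a count of 0 among 13 genes does not set the B cell list apart. HB-1 and HB-3 were the highest libraries for both CXCR5 and HBAA, and the erythrocyte share was not computed without them.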
